A study of Homo sapiens with 6 samples.

Results

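The genes described here encode the repair machinery that acts outside homologous recombination: non-homologous end joining (NHEJ), polymerase theta and the PARP enzymes, base excision, nucleotide excision and mismatch repair. Of 30 genes listed for these pathways, 24 were measured, among 13139 genes and 19458 probe sets on the array. A gene was counted as measured where a probe set carried its symbol and no other. XRCC5, NHEJ1, XRCC1, XPA and PMS2 lay only in probe sets that also carried another symbol, and MSH3 had no match, so these 6 were not analysed here. Each of the 24 had a single such probe set.

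The comparison was between HCT116 cells, a human colon carcinoma line, of wild-type genotype and an isogenic HCT116 line that lacks BRCA2, a mediator of homologous recombination, after both alleles had been targeted in turn. Both lines were grown untreated in McCoy's 5A medium with serum, and total RNA with ribosomal RNA removed was hybridised to Affymetrix whole-transcript arrays. Each genotype had 3 arrays that the labels call technical replicates, although the extraction text speaks of separate frozen samples, so that p-values measure the spread between arrays, which may be technical. With 1 line per genotype, loss of BRCA2 cannot be told apart from any other difference between the lines, and BRCA2 itself was not analysed here, so the labels had no check against the targeted gene.

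In NHEJ, the Ku heterodimer binds a broken end and recruits the kinase DNA-PKcs, the nuclease Artemis trims the end, and XRCC4 with DNA ligase IV seals it. Polymerase theta joins ends at short homologies, a route that cells without BRCA2 are known to lean on, and PARP1 and PARP2 sense strand breaks, which is the basis of the killing of BRCA2-deficient cells by PARP inhibitors. Excision repair removes damaged bases or short damaged stretches of 1 strand, and mismatch repair corrects replication errors, a pathway that HCT116 cells are known to lack.

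The values are log2 levels of summarised probe sets, and every difference below is knockout minus wild type on that scale. Array medians ran from 7.36 to 7.80, with the highest on wild-type array 1 and knockout array 2. The labelled cell type was checked against its markers. The keratin genes KRT8 and KRT18 and the adhesion genes EPCAM and CDH1 lay between 9.47 and 13.11 on every array, while VIL1, a brush border gene of differentiated gut epithelium, lay between 4.76 and 6.91. All 8 epithelial markers were higher in the knockout, 5 of them without overlap between the arrays, where 12.0% of all probe sets were higher without overlap. None passed the test, and 1 had an unadjusted p under 0.05, as 12.2% of all probe sets did. Their mean was 9.89 to 10.16 on the wild-type arrays and 10.31 to 10.80 on the knockout arrays. Markers of other cell types were mostly higher as well, and none passed the test: 3 of 4 lymphocyte and myeloid genes (median difference 0.50, against 0.42 for the epithelial genes), 6 of 7 fibroblast and endothelial genes (0.36) and 3 of 3 neural genes (0.57). CD68, COL1A1 and GFAP, at 0.51, 1.10 and 0.73, were higher without overlap. Array means of these lists overlapped between the genotypes, at 5.72 to 6.69 in wild type and 5.97 to 6.67 in knockout for the first, 5.94 to 6.83 and 6.22 to 7.16 for the second, and 5.91 to 6.30 and 6.21 to 7.33 for the neural genes. The part of these shifts in the results below was not tested.

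Most of the repair genes had lower means in the knockout, and none passed the test. Of 24 genes, 20 were lower (83.3%) and 4 higher, with a median difference of -0.34, whereas 48.7% of all probe sets were lower, with a median of 0.02. Over all 13139 genes, with 1 probe set each, 45.3% were lower and the median was 0.07. After median centring or quantile normalization 21 of the repair genes were lower. No repair gene had an adjusted p under 0.05 in limma, against 111 of all probe sets (0.570%), and their adjusted p-values ran from 0.255 to 0.986. At an unadjusted p under 0.05 there were 4 repair genes, or 16.7%, against 12.2% of all probe sets. The same 4 genes were the ones whose 3 knockout arrays did not overlap the 3 wild-type arrays. XRCC4, LIG1 and OGG1 lay lower, where 7.70% of all probe sets did so, and ERCC2 lay higher, where 12.0% did. In either direction the share without overlap was 16.7% of the repair genes against 19.7% of all probe sets, which is near the background and is not a result about these genes. The smallest difference that passed the test anywhere on the array was 1.56, larger than any of the 24, which ran from -1.04 to 0.61.

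**Figure D1:**
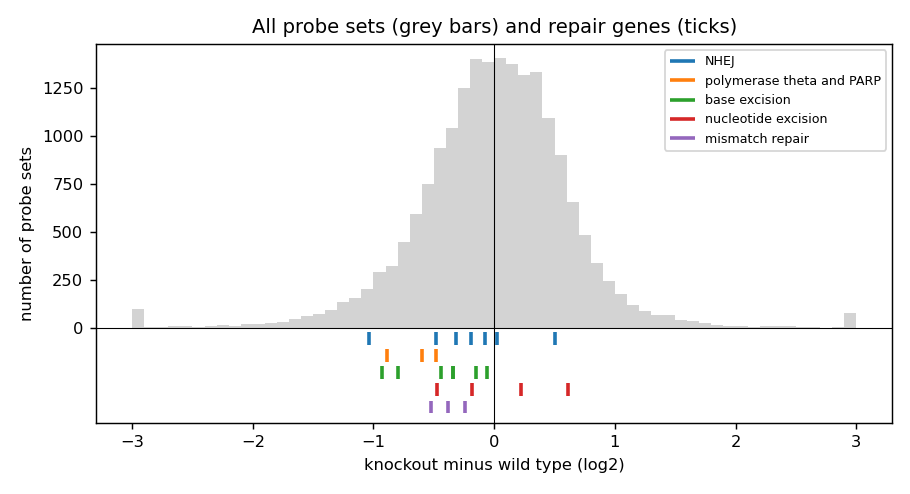
Number of probe sets (grey bars, bins 0.1 wide) by knockout minus wild type difference in log2 units, with differences beyond 3 placed in the outermost bins; coloured ticks mark the 24 repair genes by pathway. The ticks of 20 genes lie below 0, all 24 lie between -1.04 and 0.61, and those of nucleotide excision are divided equally around 0.

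The promoters of the 4 genes whose arrays did not overlap are shown as examples. The share of genes without overlap was near the background, so the choice gives these 4 no special standing. Each is the 250 bases before the annotated gene start in RefSeq on the build GRCh38.p14, 5′ to 3′ on the gene's own strand: XRCC4 at chr5:83077297-83077546 (plus strand), LIG1 at chr19:48170345-48170594 (minus strand), OGG1 at chr3:9749702-9749951 (plus strand) and ERCC2 at chr19:45370574-45370823 (minus strand). Capitals mark matches, on either strand, to the motifs searched for.
XRCC4: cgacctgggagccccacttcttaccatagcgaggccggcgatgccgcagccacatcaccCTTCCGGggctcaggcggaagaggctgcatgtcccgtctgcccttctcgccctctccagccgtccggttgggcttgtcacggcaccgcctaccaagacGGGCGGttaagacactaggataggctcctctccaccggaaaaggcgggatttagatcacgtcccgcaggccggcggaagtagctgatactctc
LIG1: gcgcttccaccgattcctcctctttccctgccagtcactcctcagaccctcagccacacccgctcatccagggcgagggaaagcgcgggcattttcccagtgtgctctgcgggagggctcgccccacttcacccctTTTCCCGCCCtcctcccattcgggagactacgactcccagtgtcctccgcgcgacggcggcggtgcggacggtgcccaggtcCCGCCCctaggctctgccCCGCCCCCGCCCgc
OGG1: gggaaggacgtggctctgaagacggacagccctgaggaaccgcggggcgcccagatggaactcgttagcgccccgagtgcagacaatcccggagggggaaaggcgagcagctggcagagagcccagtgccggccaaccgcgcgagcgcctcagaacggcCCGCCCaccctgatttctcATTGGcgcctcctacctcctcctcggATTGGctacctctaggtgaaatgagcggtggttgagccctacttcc
ERCC2: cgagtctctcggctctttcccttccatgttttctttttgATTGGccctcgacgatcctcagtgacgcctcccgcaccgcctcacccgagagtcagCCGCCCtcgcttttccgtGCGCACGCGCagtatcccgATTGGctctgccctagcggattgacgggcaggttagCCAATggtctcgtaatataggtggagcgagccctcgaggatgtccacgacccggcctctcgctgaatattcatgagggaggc

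The motifs were the GC box (GGGCGG), the CCAAT box (CCAAT), an ETS site (CCGGAAG), the cell cycle element called CHR (TTTGAA), 3 forms of the E2F site (TTTGGCGC, TTTCGCGC and TTTCCCGC), and the NRF1 site and an interferon response element by name alone. XRCC4 held a GC box whose first base lay 93 bases before the start and an ETS match at 191. LIG1 held 4 GC boxes, at 110, 32, 14 and 8 bases, and an E2F match at 114 that overlaps the first of them. OGG1 held 1 GC box at 91 and CCAAT boxes at 72 and 46. ERCC2, the gene that was higher in the knockout, held CCAAT boxes at 211, 118 and 82, a GC box at 155 and an NRF1 match at 137. The 3 genes that were lower had no motif in common other than the GC box, which ERCC2 held as well. A link between motifs and the direction of a difference was not tested.

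Over the 22 repair genes with a promoter sequence in the table, which were all but PRKDC and POLB, 16 held a GC box (72.7%, against 42.3% of 27305 promoters of the same length). A CCAAT box was present in 10 (45.5% against 33.0%), and ETS and NRF1 matches in 4 each (18.2%, against 8.82% and 5.53%). LIG1 alone of the 22 matched an E2F form (4.55% against 2.38%). The CHR element was found in RIF1 and POLQ (9.09% against 13.6%), and the interferon response element in MLH3 (4.55% against 3.07%). Their median GC content was 63.6%, against 58.0% over all promoters, with MSH6 highest at 81.2% and DCLRE1C lowest at 45.6%. ERCC1 and ERCC4, the subunits of 1 nuclease, held none of the motifs. A match describes the letters in the window and was not tested for function.

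The NHEJ genes did not move one way: 5 of 7 were lower and 2 higher, with a median of -0.19. XRCC4, the scaffold of DNA ligase IV, was at 9.47, 8.83 and 9.41 on the wild-type arrays and at 7.80, 8.73 and 8.05 on the knockout arrays, in the order of their numbers, as in all such lists below. All knockout values lay below all wild-type values, though knockout array 2 was only just under wild-type array 2. The means were 9.24 ± 0.35 and 8.20 ± 0.48 (SD, n = 3 arrays per genotype), a difference of -1.04 ± 0.34 (SE, limma adjusted p = 0.289), and the 95% interval ran from -1.85 to -0.23. The difference corresponds to 48.6% of the wild-type level and was the largest of the 24. Its partner LIG4, the ligase that seals the break, was at 8.0, 7.74 and 7.91 in wild type and 7.32, 7.87 and 8.23 in knockout. Knockout array 1 was below and knockout array 3 above every wild-type array, and the difference was -0.08 ± 0.31 (interval -0.80 to 0.65).

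DCLRE1C, which encodes the end-trimming nuclease Artemis, went the other way. It was at 7.38, 6.32 and 6.88 in wild type and at 7.51, 7.79 and 6.78 in knockout, a difference of 0.50 ± 0.39 (adjusted p = 0.656). Knockout arrays 1 and 2 were above every wild-type array and knockout array 3 was not. PRKDC, which encodes DNA-PKcs, was at 11.20, 10.32 and 10.18 in wild type and 10.23, 10.97 and 10.56 in knockout, a difference of 0.02 ± 0.37 (interval -0.85 to 0.89) whose sign turned with the scaling, to -0.07 after quantile normalization. XRCC6, the Ku70 subunit, differed by -0.32 ± 0.41 (adjusted p = 0.787). Its wild-type arrays spanned 5.09 to 6.40 and held all knockout arrays except knockout array 1, at 4.88. By mean over the 6 arrays, the XRCC6 probe set was among the dimmest 30% of all, as were those of ERCC5 and MLH3.

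RIF1 and TP53BP1, whose products steer breaks towards end joining by limiting resection, had lower means, with the wider spread for RIF1. RIF1, an effector of 53BP1, was at 9.25, 7.75 and 8.38 in wild type and at 7.46, 9.08 and 7.41 in knockout, a difference of -0.48 ± 0.57 (adjusted p = 0.773). It was -0.08 without wild-type array 1, and -1.03 if knockout array 2 was left out. Knockout array 2 was above 2 of the 3 wild-type arrays, and the other knockout arrays were below all of them. TP53BP1, the gene for 53BP1 itself, was at 7.80, 7.08 and 7.45 in wild type and 6.74, 7.94 and 7.08 in knockout (difference -0.19 ± 0.38). For this gene the highest of the 6 values was on a knockout array.

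All 3 genes of the polymerase theta and PARP group were lower, with a median of -0.60, and in each the arrays overlapped. POLQ, which encodes polymerase theta, was at 7.45, 6.63 and 6.74 in wild type and 5.41, 7.25 and 5.48 in knockout. Knockout arrays 1 and 3 lay over 1 log2 unit below the lowest wild-type array, while knockout array 2 was above wild-type arrays 2 and 3. The difference was -0.89 ± 0.54 (adjusted p = 0.557, interval -2.17 to 0.39). It was -1.49 without knockout array 2 and -0.57 without knockout array 1. An increase of POLQ was thus not seen, and the interval admits one of up to 0.39.

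PARP1, the main sensor of strand breaks, was at 10.51, 9.12 and 9.66 in wild type and 8.76, 10.11 and 8.99 in knockout, a difference of -0.48 ± 0.49 (adjusted p = 0.733). It was -0.10 without wild-type array 1, and -0.89 if knockout array 2 was left out. Here too knockout array 2 was above 2 wild-type arrays, and knockout arrays 1 and 3 were below all 3. PARP2, its smaller relative, had another pattern over the arrays: 9.26, 8.50 and 9.11 in wild type, and 8.70, 8.57 and 7.79 in knockout. The difference was -0.60 ± 0.36 (adjusted p = 0.550), with only wild-type array 2 below knockout arrays 1 and 2.

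**Figure D2:**
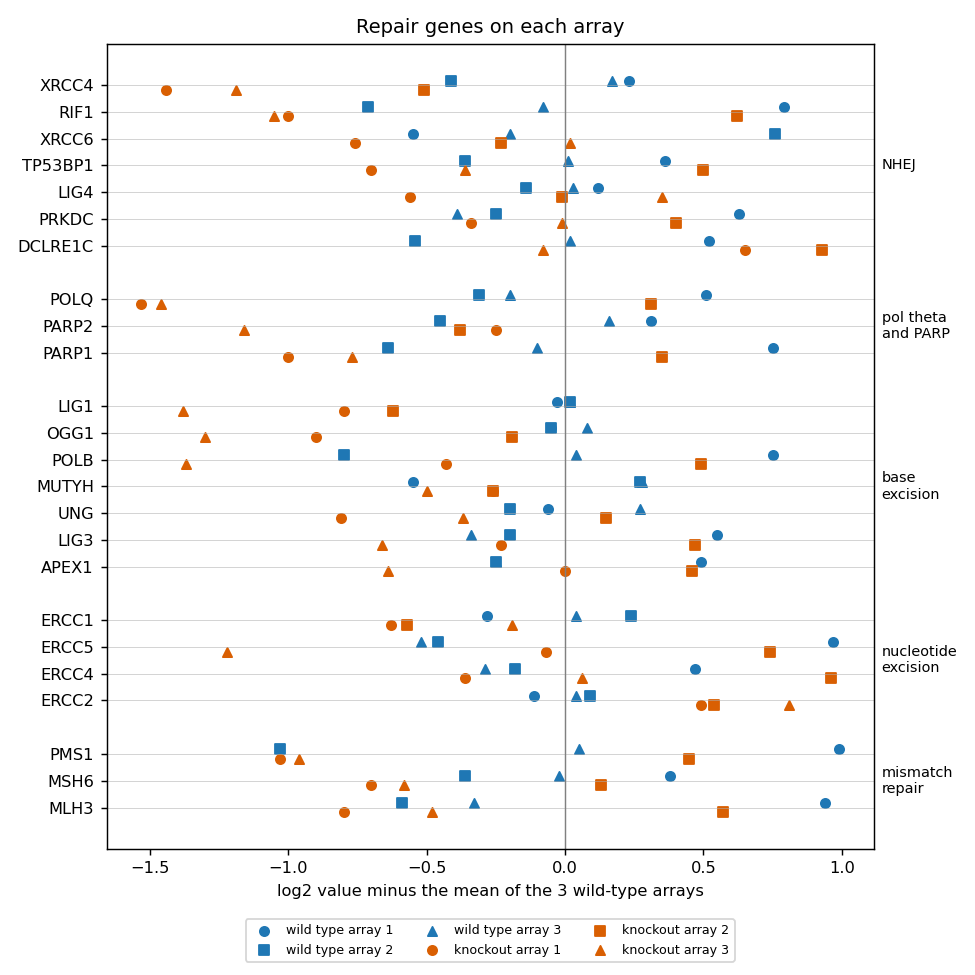
Value of each of the 24 repair genes on each array, as log2 value minus the mean of that gene's 3 wild-type arrays; colour marks the genotype and shape the array number, and the line at 0 is the wild-type mean. For XRCC4, LIG1 and OGG1 all knockout points lie to the left of all wild-type points, for ERCC2 to the right, and in many rows knockout array 2 lies among or above the wild-type points.

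All 7 base excision genes were lower, with a median of -0.34 and a range from -0.93 to -0.06. LIG1, the ligase that seals long-patch repair and Okazaki fragments, was at 8.98, 9.03 and 9.03 in wild type and at 8.21, 8.39 and 7.63 in knockout. Its wild-type arrays were the closest together of all 24 genes, spanning 0.05, and every knockout array lay well below them. The difference was -0.93 ± 0.29 (limma adjusted p = 0.255, interval -1.61 to -0.26), or 52.3% of the wild-type level. LIG3, the ligase of short-patch and single-strand break repair, was at 8.81, 8.06 and 7.92 against 8.03, 8.73 and 7.60 (difference -0.15 ± 0.40), so that its arrays overlapped.

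The glycosylases OGG1, MUTYH and UNG start repair by cutting out 8-oxoguanine, adenine paired with it, and uracil. OGG1 was at 8.11, 8.11 and 8.24 in wild type and 7.26, 7.97 and 6.86 in knockout, a difference of -0.80 ± 0.33 (adjusted p = 0.406, interval -1.58 to -0.01). The knockout arrays were lower without overlap, by a narrow margin for knockout array 2. MUTYH, which acts on the same lesion, differed by -0.34 ± 0.31, with knockout arrays from 7.41 to 7.65. Its wild-type arrays 2 and 3 were higher, at 8.18 and 8.19, but wild-type array 1, at 7.36, was the lowest of the 6. UNG differed by -0.34 ± 0.33, with 8.23 to 8.70 in wild type and 7.62 to 8.58 in knockout.

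POLB, the polymerase that fills the gap, was at 8.15, 6.60 and 7.44 in wild type and 6.97, 7.89 and 6.03 in knockout, a difference of -0.44 ± 0.57 (adjusted p = 0.796). The arrays overlapped widely and each genotype spanned over 1 log2 unit. APEX1, the endonuclease that opens the abasic site, was at 10.04, 9.30 and 9.30 against 9.55, 10.01 and 8.91. Its difference of -0.06 ± 0.38 had an interval from -0.95 to 0.84, and with PRKDC and LIG4 it was 1 of 3 genes whose interval left out a difference of 1 in both directions.

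The nucleotide excision genes were divided, 2 higher and 2 lower, with a median of 0.02. ERCC2, which encodes the XPD helicase of the transcription and repair complex TFIIH, was at 10.06, 10.26 and 10.21 in wild type and 10.66, 10.71 and 10.98 in knockout. All knockout arrays were above all wild-type arrays, and the arrays within each genotype were close. The difference was 0.61 ± 0.24 (adjusted p = 0.382, interval 0.04 to 1.19), or 153% of the wild-type level. ERCC1, which lies near ERCC2 on chromosome 19 and encodes the partner of the nuclease XPF, went the other way: 10.75, 11.27 and 11.07 in wild type and 10.40, 10.46 and 10.84 in knockout, a difference of -0.47 ± 0.27 (adjusted p = 0.549). Only knockout array 3 was above wild-type array 1. Each of ERCC1 and ERCC2 also had 1 probe set that carried a second symbol, which was not used here.

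ERCC4, which encodes XPF, was at 7.19, 6.54 and 6.43 in wild type and 6.36, 7.68 and 6.78 in knockout (difference 0.22 ± 0.41, adjusted p = 0.861). The highest of the 6 values was on knockout array 2 and the lowest on knockout array 1. ERCC5, the nuclease gene XPG, had the widest standard error of this group, with 7.00, 5.57 and 5.51 against 5.96, 6.77 and 4.81 (difference -0.18 ± 0.61). The genotypes overlapped widely for both nucleases.

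The 3 mismatch repair genes were lower, with a median of -0.38, and their arrays overlapped. PMS1, a MutL-related gene, was at 9.21, 7.19 and 8.27 in wild type and 7.19, 8.67 and 7.26 in knockout, a difference of -0.52 ± 0.61 (adjusted p = 0.769). It was -0.03 without wild-type array 1 and -1.04 without wild-type array 2. The wild-type arrays alone spanned 2.02, the widest wild-type range of the 24 genes. MSH6, a subunit of the mismatch-binding complex, was at 8.83, 8.09 and 8.43 against 7.75, 8.58 and 7.87, a difference of -0.38 ± 0.34 (adjusted p = 0.694). Knockout arrays 1 and 3 were below every wild-type array and knockout array 2 was second highest of the 6. MLH3, another MutL-related gene, was at 7.13, 5.60 and 5.86 against 5.39, 6.76 and 5.71 (difference -0.24 ± 0.53, adjusted p = 0.880), and the highest value of each genotype was on the array of highest median.

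**Figure D3:**
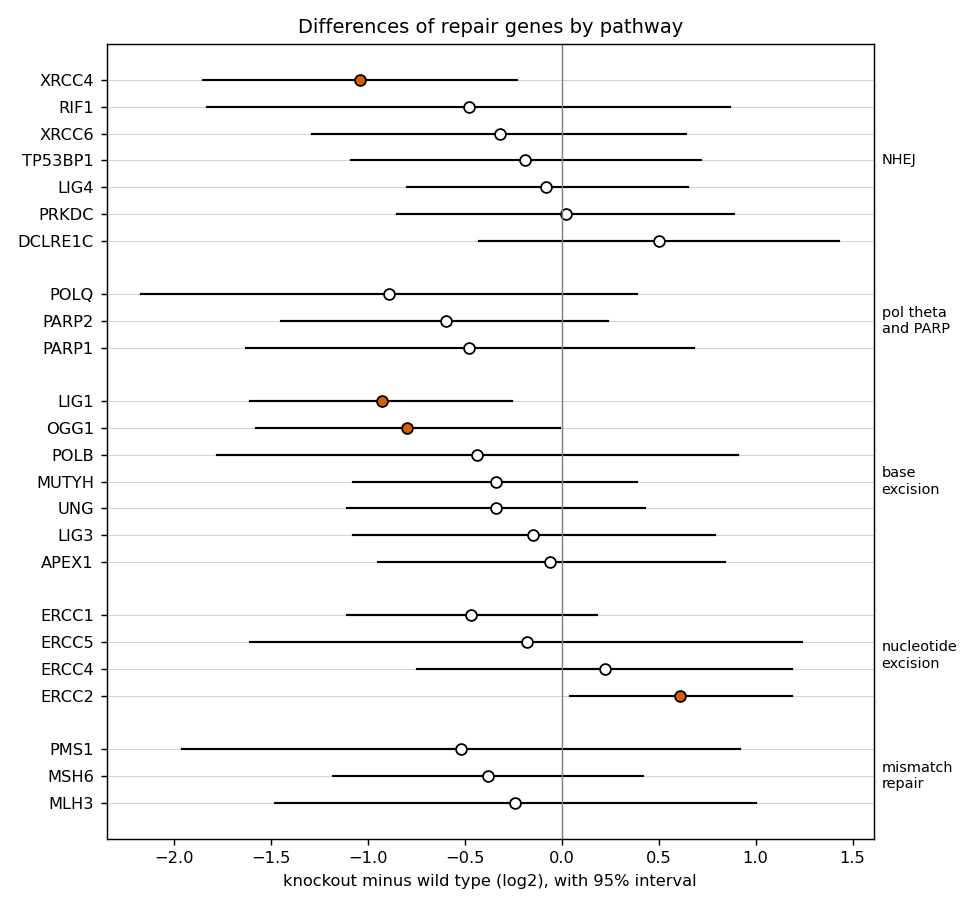
Knockout minus wild type difference in log2 units for each of the 24 repair genes, by pathway, with the 95% interval of the limma fit over 3 arrays per genotype; filled circles mark genes whose arrays did not overlap between genotypes. The intervals of XRCC4, LIG1 and OGG1 lie below 0 and that of ERCC2 above 0 before adjustment for multiple testing, and the other 20 include 0.

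The spread between arrays of 1 genotype was as large as most of these differences. Only for XRCC4, LIG1 and ERCC2 was the difference between the means larger than the range over the 3 arrays in both genotypes, and in 15 of the 24 genes at least 1 genotype spanned over 1 log2 unit. Within the wild type, array 1 held the highest value for 17 of 24 genes (70.8%, against 49.5% of all probe sets), and within the knockout, array 2 did so for 19 (79.2%, against 52.8%). Both held for 15 genes, or 62.5%, against 39.1% of all probe sets. The mean over the 24 genes was 8.56, 7.95 and 8.16 in wild type and 7.66, 8.44 and 7.62 in knockout. Relative to each array's own median the means were 0.85, 0.59 and 0.67 higher in wild type and 0.25, 0.64 and 0.20 higher in knockout. Knockout arrays 1 and 3 were thus the lowest on either scale, and knockout array 2 was within the wild-type range. The part of the array medians in the repair gene values was not tested.

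**Figure D4:**
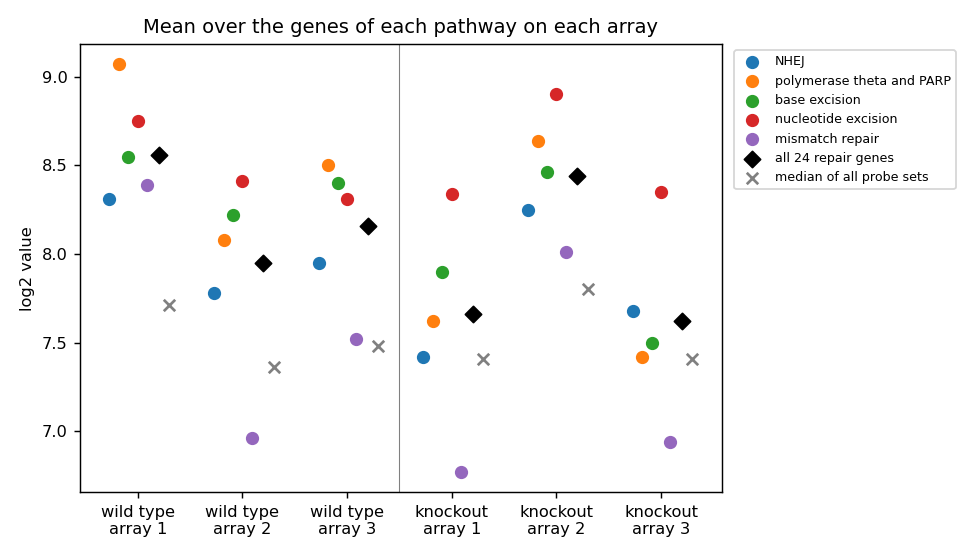
Mean log2 value over the measured genes of each pathway on each of the 6 arrays, with the mean over all 24 repair genes (diamonds) and the median of all probe sets (crosses). Wild-type array 1 and knockout array 2 are highest within their genotype for the mean of all 24 genes, at 8.56 and 8.44, and for the median of all probe sets.

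The pairs of arrays gave the same picture. On knockout array 1, 21, 18 and 18 of the 24 genes were lower than on wild-type arrays 1, 2 and 3, and on knockout array 3, 19, 16 and 19 were lower. On knockout array 2, 17 genes were lower than on wild-type array 1 but 6 and 9 were lower than on wild-type arrays 2 and 3, with median differences of 0.64 and 0.45. Over all probe sets, the medians for knockout array 2 against wild-type arrays 2 and 3 were 0.28 and 0.22. Those of the other pairs ran from -0.24 to 0.08. The direction of the set thus differed between single pairs of arrays, while its median stayed negative with any 1 array left out. The median over the 24 genes was -0.07 without wild-type array 1 (16 lower), -0.22 without knockout array 1 (17 lower) and -0.61 without knockout array 2 (22 lower). Without both wild-type array 1 and knockout array 2 it was -0.51, with 20 genes lower. The arrays then did not overlap for 11 genes (45.8%), 10 of them lower, among them POLQ (-1.24), MUTYH (-0.66), UNG (-0.62) and ERCC1 (-0.55), but with 2 arrays per genotype 47.3% of all probe sets did not overlap either. None of the 24 passed the test in that comparison.

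Further genes of the same pathways, from lists that hold none of the 24, were examined in the same way. Of 67 listed, 47 were measured, of which 29 were lower (61.7%, against 45.3% of all genes) and 18 higher. Their median was -0.18, against 0.07 over all genes, and none passed the test (0.570% of all probe sets did). At an unadjusted p under 0.05 there were 0 of these 47, against 12.2% of all probe sets. The arrays did not overlap for 2 (4.26%, against 19.7%), both lower, where 7.70% of all probe sets were lower without overlap. One was RFC5, a subunit of the clamp loader used in replication and in mismatch repair synthesis, at 9.05, 9.06 and 9.60 against 8.83, 8.99 and 8.64, a difference of -0.41 ± 0.28. The other was DNTT, the lymphoid polymerase that adds bases at immune receptor joints, at 4.44, 4.72 and 5.34 against 2.37, 4.0 and 4.37 (difference -1.26 ± 0.55, adjusted p = 0.423). Knockout array 1 was the lowest for DNTT, and its levels were near the bottom of the scale, where a difference is poorly determined.

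By pathway, 5 of 11 further end joining genes were lower, with a median of 0.06. SETMAR differed by 0.59 ± 0.34, PAXX, a structural relative of XRCC4, by 0.50 ± 0.36, and POLL, a gap-filling polymerase, by -0.58 ± 0.30. None of these genes passed the test. Beside the PARP genes, 2 of 4 were lower, with a median of -0.11. HELQ, a helicase gene, had the largest difference, at -0.41 ± 0.58. In base excision 4 of 8 were lower, with a median of 0.12, whereas all 7 base excision genes of the main set were lower. The largest difference was -0.48 ± 0.49 in the glycosylase gene NEIL3. In nucleotide excision 10 of 14 were lower, with a median of -0.16, and ERCC8, a factor of transcription-coupled repair, was at -0.97 ± 0.83. Its wild-type arrays were at 6.84, 5.12 and 6.16 and its knockout arrays at 5.18, 6.65 and 3.38, so that 1 low value on knockout array 3 widened the error. In mismatch repair 8 of 10 were lower, with a median of -0.37, and the largest was -0.51 ± 0.32 in POLD1, the catalytic subunit of polymerase delta.

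Since the genotypes are 2 separate lines, the genes next to each repair gene were examined in chromosomal order. The 24 genes lie on 14 chromosomes, and 5 measured genes on each side were taken. The median of the neighbours was below 0 for 13 of the 24, and the median of these medians was -0.02, against a median of -0.34 for the repair genes themselves. PARP2 and APEX1, ERCC1 and ERCC2, and LIG4 and ERCC5 were among each other's neighbours. Such pairs shared other neighbours too, so the neighbour sets were not independent. Around XRCC4, the gene of largest difference, 7 of the 10 neighbours on chromosome 5 were lower, with a median of -0.50. VCAN, the matrix proteoglycan gene directly beyond it, was at 10.65, 10.18 and 10.35 in wild type and 8.05, 8.82 and 8.18 in knockout and fell by 2.04 ± 0.31 on the log2 scale (adjusted p = 0.0485). SSBP2, a transcriptional cofactor gene on the other side, was at 7.98, 7.17 and 7.37 against 6.19, 6.86 and 5.40 (difference -1.36 ± 0.43, adjusted p = 0.272), also without overlap. The adjacent TMEM167A lay at the bottom of the scale on every array, from -7.10 to 3.53, so that its difference of -4.66 ± 2.33 is poorly determined, and HAPLN1 and EDIL3 beyond VCAN were at 0.67 and 0.59.

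Around LIG1 on chromosome 19 the neighbours went both ways, 4 of 10 lower with a median of 0.10. PLA2G4C, a phospholipase gene directly next to LIG1, was at 5.30, 5.34 and 5.29 in wild type and 6.32, 6.42 and 6.27 in knockout, a difference of 1.03 ± 0.23 (adjusted p = 0.147) in the direction opposite to LIG1. ELSPBP1, the next gene beyond PLA2G4C, differed by 1.10 ± 0.37, and both genes were higher without overlap. CARD8, an inflammasome gene, and EMP3, a membrane protein gene, were lower without overlap, at -1.05 ± 0.32 and -1.16 ± 0.25. Over all probe sets, 12.0% were higher and 7.70% lower without overlap. Other genes among the 10 neighbours that passed the test were IRS2 near LIG4 (1.70 ± 0.26, adjusted p = 0.0485), RND3 near RIF1 (1.82 ± 0.23, adjusted p = 0.0267) and RNASE1 near APEX1 (-2.54 ± 0.33, adjusted p = 0.0292). In each of these places the repair gene itself did not pass the test, at -0.08, -0.48 and -0.06. PARP2 and APEX1, which lie near each other on chromosome 14, had neighbour medians of 0.14 and 0.10.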

How the data were processed

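Deposited log2 values of 19458 probe sets on 6 arrays were used unchanged and unfiltered. The submitters' processing notes list RMA, R (2.11.1) and hg18, with no role; the steps run and any filter applied by the authors are not given in the sources used here. From the range of the values, the scale is log2. Arrays give no read depth, and their number limits the precision. Per the platform annotation 13301 probe sets had 1 symbol, 2044 several and 4113 none. A RefSeq table (GRCh38.p14, 13280 identifiers found) gave current symbols, chromosomes and gene order. Where several probe sets carry a symbol, the one of highest mean stood for the gene.

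The genotypes were compared with limma 3.58.1 in R 4.3.3 (lmFit and eBayes, genotype as the only factor), with Benjamini-Hochberg adjustment over all probe sets and a threshold of 0.05. Genes and lists were chosen with earlier results of these data known, so no list was tested. Described in full were the 3 genes of largest difference in each pathway and every gene called or without overlap. Of the further pathway genes, those called or without overlap were named, and otherwise the largest difference per pathway. Of the neighbours, every gene called was named, but only some of those around XRCC4 and LIG1. SETMAR, PAXX, POLL and the remaining repair genes were added with their values known. The fit was checked on simulated data, where it missed all of the smallest changes and part of the larger ones. Alternatives were other scalings, filters and variance models, the unmoderated one-way test that the series names, array weights, a replicate block and leaving out arrays.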

Additional observations from a re-analysis of the deposited data

How the results depend on the processing

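The 24 repair genes were recomputed under 17 alternatives. No repair gene was called in 16 of them. With array weights 1 was called, XRCC4 (-1.29, adjusted p = 0.0452; 0.0452 to 0.751 over its alternatives), when 778 of all probe sets were called against 111. The number of all probe sets called was 175 after median centring, 174 after quantile normalization, 184 without the dimmest 30% (which left 21 repair genes), 169 with values under 4 set to 4, 396 with a variance trend, 24 to 63 with 1 array left out and 7 without both arrays of highest median. The number of repair genes lower was 16 to 22, and their median -0.61 to -0.07, with 1 array left out. The number without overlap was 4 to 9 with 1 array left out, with 9 reached without knockout array 2, where 39.4% of all probe sets did not overlap, and 11 without both arrays. With 2 arrays left in a genotype, the spread is pooled over both genotypes.

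The labels number the arrays 1 to 3 in both genotypes. Correlations of deviations between same-numbered arrays were -0.24, -0.43 and 0.06. The highest of any pair was 0.49, between wild-type array 1 and knockout array 2. Deviations from a mean of 3 arrays constrain each other, so these values cannot show whether the numbers mark a pairing. With the replicate block 3 of all probe sets and 0 repair genes were called, and 20 repair genes were lower.

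Of 405 values of single genes under the alternatives, 19 changed sign, and 14 genes never did. PRKDC was at 0.00 after median centring and -0.07 after quantile normalization, and APEX1 at 0.00 with array weights. With 1 array left out, the genes that changed sign ran from -0.17 to 0.34 for PRKDC, -0.32 to 0.23 for APEX1, -0.60 to 0.05 for XRCC6, -0.29 to 0.17 for LIG4, -0.53 to 0.07 for TP53BP1, -0.45 to 0.13 for LIG3, -0.90 to 0.03 for POLB, -0.15 to 0.51 for ERCC4, -0.65 to 0.33 for ERCC5 and -0.65 to 0.23 for MLH3. Among genes that kept their sign, leaving out 1 array gave ranges of 0.23 to 0.79 for DCLRE1C, -1.03 to -0.08 for RIF1, -1.49 to -0.57 for POLQ, -0.89 to -0.10 for PARP1, -0.83 to -0.32 for PARP2, -0.62 to -0.20 for MUTYH, -0.59 to -0.11 for UNG, -0.64 to -0.19 for MSH6 and -1.04 to -0.03 for PMS1. For XRCC4, LIG1 and OGG1, which also kept their sign, the ranges were -1.31 to -0.85, -1.09 to -0.71 and -1.10 to -0.54. ERCC1 ran from -0.60 to -0.35 and ERCC2 from 0.51 to 0.67. The cause of these changes was not tested.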
